A study of Mus musculus with 23 samples.

Results

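The genes described here build the beating cilia of epithelia or mark the lining of the oviduct. They were chosen by symbol from the deposited ovary table: the numbered Cfap, Dnah and Dnaaf genes, Dnaic1 and Dnaic2, the Rsph genes, the tektins, and Foxj1, Pax8 and Ovgp1. The rule used no measured value and found 59 of the 24716 genes listed. RNA sequencing had been run on 23 ovary libraries from wild-type female mice of 3 inbred strains, to compare strains and diets. One diet held 44% fat and was rich in sugar, and the control diet held 10% fat; both had fiber. Feeding began at 6 weeks of age and ovaries were collected at 15 weeks. NZO/HlLtJ, a strain prone to obesity, had 4 libraries on 44% fat and 4 on 10% fat, as did CAST/EiJ, a strain derived from wild Mus musculus castaneus. C57BL/6J, the common laboratory strain, had 4 libraries on 44% fat and 3 on 10% fat. Fat and sugar changed together between the diets and cannot be told apart, and the stage of the estrous cycle was not labelled. The labels do not say that libraries came from separate animals, so the p-values rest on a spread among libraries that may be technical in part.

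A motile cilium beats because dynein motors slide the doublet microtubules of its core, the axoneme, past one another. Outer and inner dynein arms supply the force, radial spokes and the central pair of microtubules time it, tektins and many Cfap proteins brace the doublets, and Dnaaf proteins assemble the arms in the cytoplasm before transport. Foxj1 is the transcription factor that switches this programme on in multiciliated cells. The oviduct, the tube that opens beside the ovary, is lined by multiciliated cells and by secretory cells; Pax8 is a transcription factor of the secretory lineage and Ovgp1 is the oviductal glycoprotein those cells release. Cells of the ovary proper carry mainly single primary cilia, which lack this motor apparatus.

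Ovary markers were present in all libraries. Summed over its list, the level of granulosa cell genes lay between 1316 and 5610 CPM (counts scaled by library size with TMM factors), that of oocyte genes between 155 and 703 CPM, and that of luteal genes between 5826 and 16139 CPM. Libraries held 31.9 to 45.9 M estimated counts, with a mean of 39.0 ± 4.13 M (SD, n = 23).

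RFX factors, which act beside Foxj1 in ciliogenesis, bind X-box sequences in promoters of ciliary genes. Of the 59 members, 49 had an entry in the RefSeq promoter table, on GRCm38.p6, which runs from 250 bases before to 50 bases after each start. A relaxed X-box, searched on both strands, was found in 8 of these 49 promoters (16.3%), against 2.17% of all 27025 promoters. It was 1 of 13 spellings searched, some of which overlap, and the shares are a description with no test. The 8 stretches of 60 bases are shown because they let the X-box letters be compared between members of different roles. Each is written along the gene's own strand, and capitals mark the match, which reads as spelled in Cfap61, Dnah17 and Tekt4 and as its reverse complement in the others.
Cfap206, chr4:34730193-34730252, minus strand: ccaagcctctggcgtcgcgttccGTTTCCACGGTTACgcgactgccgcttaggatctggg
Cfap44, chr16:44394749-44394808, plus strand: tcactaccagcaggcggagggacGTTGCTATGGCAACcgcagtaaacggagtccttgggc
Cfap45, chr1:172521088-172521147, plus strand: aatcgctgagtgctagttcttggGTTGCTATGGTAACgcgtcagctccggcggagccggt
Cfap61, chr2:145934753-145934812, plus strand: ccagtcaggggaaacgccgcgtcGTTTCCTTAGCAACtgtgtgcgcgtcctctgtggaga
Dnaaf2, chr12:69198410-69198469, minus strand: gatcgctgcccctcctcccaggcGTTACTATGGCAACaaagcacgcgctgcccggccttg
Dnaaf5, chr5:139150194-139150253, plus strand: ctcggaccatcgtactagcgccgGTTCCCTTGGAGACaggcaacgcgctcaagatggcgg
Dnah17, chr11:118129342-118129401, minus strand: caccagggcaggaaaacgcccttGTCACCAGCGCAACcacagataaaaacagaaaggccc
Tekt4, chr17:25471407-25471466, plus strand: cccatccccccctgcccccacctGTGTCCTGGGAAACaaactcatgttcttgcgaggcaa

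In Cfap206, Cfap44, Cfap45, Cfap61, Dnaaf2 and Dnaaf5 the match began between 27 and 8 bases before the start, while in Dnah17 and Tekt4 it began 159 and 160 bases before it. The shorter spelling GTTGCC stood in 18 of the 49 promoters (36.7%), against 12.7% of all. Not all spellings were more frequent among members, and 3 stricter X-box spellings stood in 0. Of the spellings that are not X-boxes, ATAAACA and TAAACAA each stood in 1 of the 49 (2.04%), against 4.60% and 4.26% of all. TGTTTNC went the other way, in 16 of the 49 (32.7%), against 20.5% of all. The X-box did not go with 1 pattern of level: Cfap44 and Cfap61 varied widely between libraries, whereas Dnaaf2 and Dnaaf5 were among the steadiest members, as the values below show. Cfap157, Cfap53, Cfap54, Cfap97, Dnaaf1, Dnah3, Foxj1, Rsph1, Rsph10b and Rsph4a had no entry in the table.

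Levels in the median library differed widely between members. Per kilobase of exon, the median library had 10.7 CPM of Cfap36, which binds the small GTPase Arl3, 8.96 of Cfap97 and 8.11 of the spoke protein gene Rsph3a. Foxj1 was at 0.134, the radial spoke gene Rsph14 at 0.00829 and the dynein Dnah3 at 0.00915 CPM per kilobase. Of the 59 members, 57 had enough counts to be tested, and Tekt3 and Tekt5 did not; 10 members were at 0 in at least 1 library. The heat map of members by library shows 2 libraries that stand apart.

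**Figure D1:**
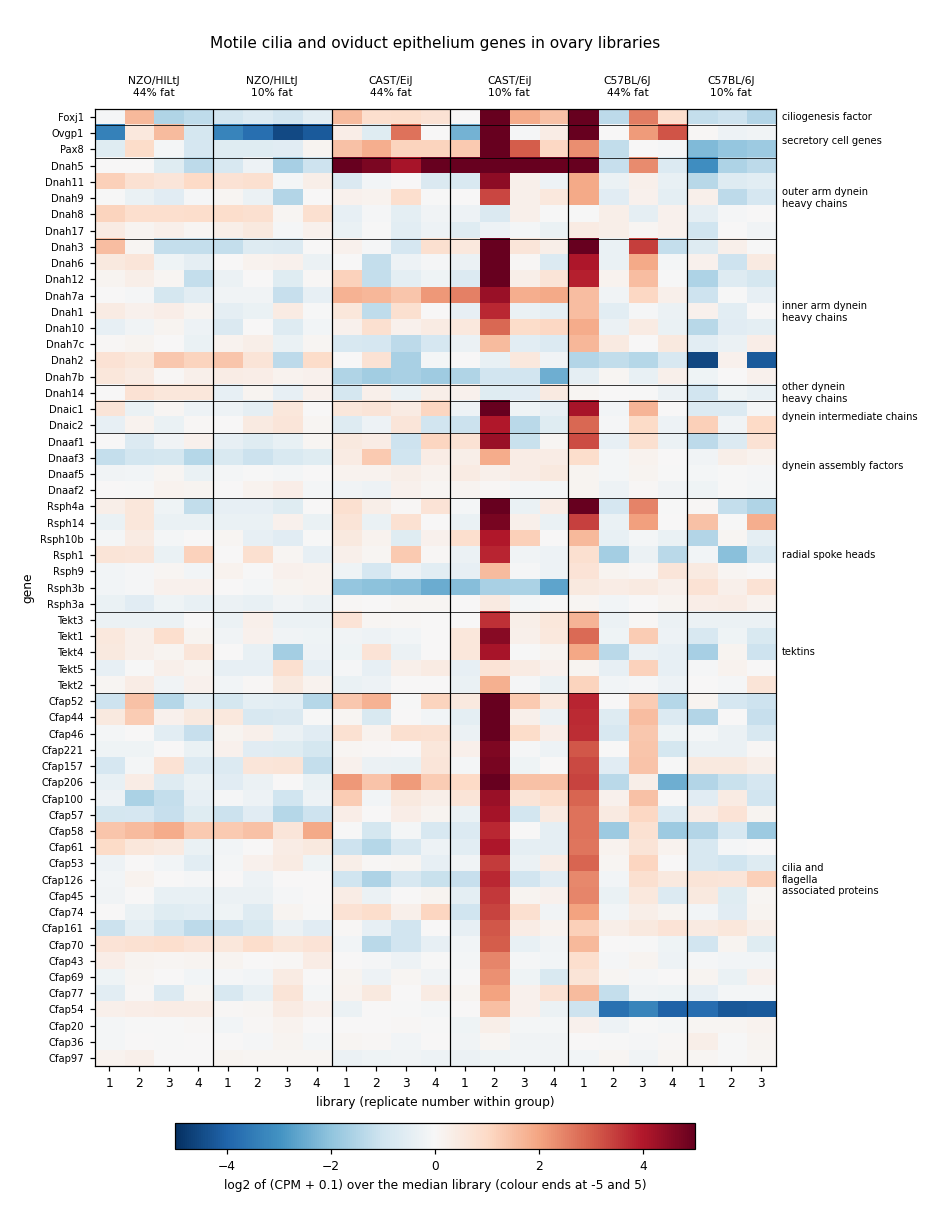
Level of the 59 members (rows, grouped by role) in the 23 libraries (columns, by strain, diet and replicate number), as log2 of CPM plus 0.1 over the same for the median library. Replicate 2 of CAST/EiJ on 10% fat and replicate 1 of C57BL/6J on 44% fat are red down most rows, whereas Dnah5, Dnah7b, Rsph3b and Cfap54 follow strain.

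Foxj1 (chr11:116330704-116335399, minus strand, GRCm38) shows the pattern at its plainest. On 10% fat, CAST/EiJ replicates 1 to 4 had 0.352, 109, 1.51 and 1.16 CPM. C57BL/6J replicates 1 to 4 on 44% fat had 22.2, 0.0845, 2.54 and 0.704 CPM. In the other groups no library passed 1.30 CPM. Replicate 2 of CAST/EiJ on 10% fat was thus 109-fold above the mean of the other 3 libraries of its group, and replicate 1 of C57BL/6J on 44% fat was 20-fold above the other 3 of its own.

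CAST/EiJ 10% fat replicate 2 was the highest of the 23 libraries for 47 of the 59 members, while it was highest for 14.4% of all genes tested. C57BL/6J 44% fat replicate 1 came next to it in 40 members, an order found in 2.16% of all genes tested. In 16 members C57BL/6J 44% fat replicate 3 followed as the third, an order found in 0.530% of genes. In the CAST/EiJ library 58 members had enough counts for a ratio to the rest of the group. Of these, 46 were more than 2-fold and 30 more than 10-fold above it, with a median of 11.6-fold. All genes tested had a median of 0.983, with 11.7% above 2-fold and 2.19% above 10-fold. In the C57BL/6J replicate 1 library the median over 58 members was 4.26-fold, with 40 above 2-fold and 11 above 10-fold, against 4.67% and 0.621% of all genes. Replicate 3 of C57BL/6J on 44% fat was raised less: set against replicates 2 and 4, it had a median of 1.51 over 53 members, and 20 passed 2-fold, against 3.69% of all genes. In bulk tissue, a different number of ciliated cells and a different amount of RNA per cell cannot be told apart.

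**Figure D2:**
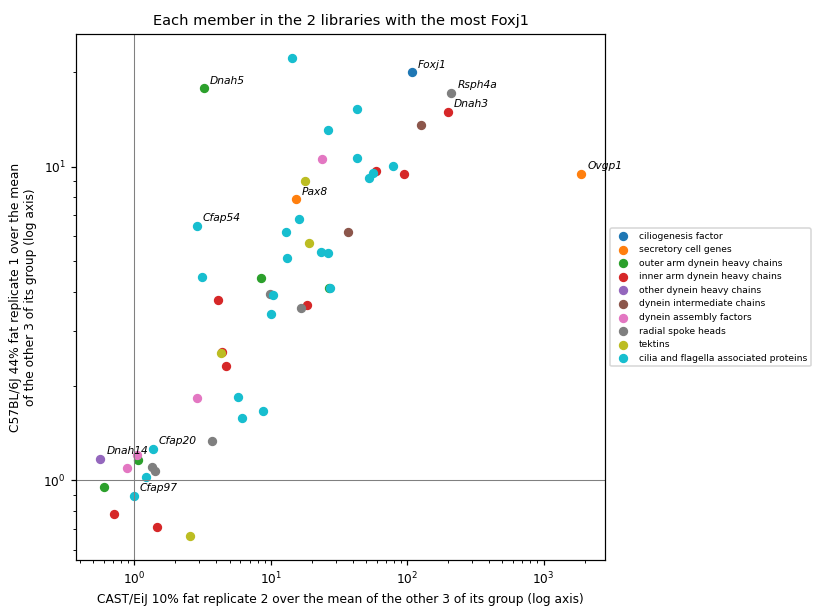
Each point is 1 of 57 members with a ratio in both libraries. The horizontal axis gives the level in replicate 2 of CAST/EiJ on 10% fat over the mean of the other 3 libraries of its group, and the vertical axis gives the same for replicate 1 of C57BL/6J on 44% fat (both log axes; grey lines mark 1). Most points lie above 1 on both axes, Ovgp1 lies far to the right at 1884-fold, and Cfap97 and Cfap20 lie near 1.

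The secretory cell genes did not keep the proportions of the ciliary genes in both libraries. Ovgp1 (chr3:105973711-105987423, plus strand) had 0.540, 4784, 3.0 and 4.07 CPM in CAST/EiJ replicates 1 to 4 on 10% fat, and 146, 3.16, 14.1 and 28.9 CPM in C57BL/6J replicates 1 to 4 on 44% fat. It was 1884-fold above the rest of its group in the CAST/EiJ library and 9.50-fold in the C57BL/6J library, where Foxj1 was at 109-fold and 20-fold. Pax8 (chr2:24420560-24475599, minus strand) was at 15.3-fold and 7.87-fold. Pax8 also stood at 4.54 CPM in CAST/EiJ 10% fat replicate 3, against 1.08 to 1.92 CPM in the other CAST/EiJ libraries apart from replicate 2 of that group. Ovgp1 shares 28.7% of its exon bases with the predicted gene Gm42890 on the same strand, and how reads were divided there is not given in the sources used here.

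**Figure D3:**
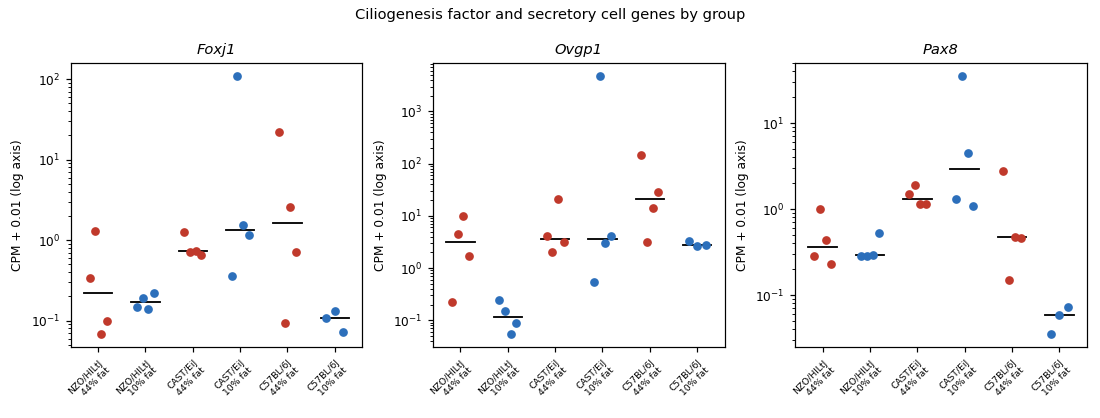
CPM plus 0.01 (log axis) of Foxj1, Ovgp1 and Pax8 in each library (points) by strain and diet, with the group median as a line (red, 44% fat; blue, 10% fat). The single highest point in each panel is CAST/EiJ 10% fat replicate 2, at 109, 4784 and 35.4 CPM.

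The motor genes differed in how high they stood in these libraries. The intermediate chains Dnaic1 and Dnaic2, which anchor the outer arm, were 126-fold and 36.9-fold above the rest of the group in the CAST/EiJ library, and 13.6-fold and 6.18-fold in the C57BL/6J replicate 1 library. The 9 inner arm heavy chains ranged from 0.703-fold to 198-fold in the CAST/EiJ library, with a median of 4.68, and Dnah3 was the highest. Among the 5 outer arm heavy chains the median was 3.24, and Dnah8 and Dnah17, known mainly from sperm, were at 0.595-fold and 1.06-fold. Dnah9, the outer arm chain of the distal cilium, was at 8.51-fold, with 50.4 CPM in the CAST/EiJ library and 4.90 to 7.07 CPM in the rest of its group.

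Radial spoke and bracing genes showed the same spread. Rsph4a, a spoke head gene, was 210-fold above the rest of the group in the CAST/EiJ library and 17.2-fold in the C57BL/6J library, with 38.7 and 9.76 CPM. The other spoke head genes Rsph1 and Rsph9 were at 16.7-fold and 3.72-fold in the CAST/EiJ library, and at 3.54-fold and 1.33-fold in the C57BL/6J library. Tekt1 was at 19.0-fold and 5.73-fold, and Tekt2 at 4.33-fold and 2.55-fold. The 23 Cfap genes had a median of 13.1-fold in the CAST/EiJ library and 5.32-fold in the C57BL/6J library, and 20 and 17 of them passed 2-fold. Cfap126, also called Flattop, which places basal bodies, was at 27.3-fold and 4.09-fold.

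The assembly factors split. Dnaaf1 was 23.6-fold and 10.6-fold above the rest of the group, with 8.48 CPM in the CAST/EiJ library and 4.01 CPM in the C57BL/6J library. Dnaaf2 and Dnaaf5 were at 1.04-fold and 0.882-fold in the CAST/EiJ library. With Cfap97, Cfap36, Cfap20 and Rsph3a, Dnaaf2 was also among the 5 members with the smallest ratio of the highest library to the median library, from 1.19 for Cfap97 to 1.38 for Rsph3a. The 5 with the largest were Ovgp1 at 1516, Dnah3 at 337, Foxj1 at 311, Rsph4a at 211 and Rsph14 at 129. Dnaaf2 shares 38.7% of its exon bases with other genes on the same strand and 32.7% with the opposite strand. Its level may therefore hold reads of those genes, which was not tested.

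Motile cilia genes that the rule did not take were high in the same libraries. Of a list of 83, 76 were in the table, and 7 were not analysed here. Their summed level was 1333 CPM in CAST/EiJ 10% fat replicate 2, 645 CPM in C57BL/6J 44% fat replicate 1 and 294 to 355 CPM in the other 21 libraries. CAST/EiJ 10% fat replicate 2 was highest for 67 of the 76, and C57BL/6J 44% fat replicate 1 followed it in 57. A list of 43 genes of primary cilia and of intraflagellar transport varied less, with sums of 1616 to 1796 CPM over all 23 libraries. The highest sum was in CAST/EiJ 10% fat replicate 2, which was highest for 17 of the 43, against 14.4% of all genes tested. None of the 43 was 2-fold above the rest of the group in either library. The median ratio was 1.13 in the CAST/EiJ library and 1.01 in the C57BL/6J library.

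Some markers of other cell types were also high in these libraries. The other epithelial genes of the oviduct, 22 of 23 present, summed to 640 CPM in CAST/EiJ 10% fat replicate 2, with 13 of 22 above 2-fold. In C57BL/6J 44% fat replicate 1 they summed to 175 CPM, within the 123 to 288 CPM of the other 21 libraries, with 5 of 22 above 2-fold. The highest of those 21 was replicate 3 of CAST/EiJ on 10% fat, where Pax8 was at 4.54 CPM. White adipocyte genes, 12 of 12 present, summed to 3631 CPM in the CAST/EiJ library and 1105 CPM in the C57BL/6J library, against 148 to 1055 CPM elsewhere, and 12 and 9 of the 12 were above 2-fold. Granulosa and luteal genes were lowest of all libraries in CAST/EiJ 10% fat replicate 2, at 1316 and 5826 CPM. Smooth muscle genes summed to 1705 CPM in the CAST/EiJ library and 1366 CPM in the C57BL/6J library, within the 901 to 2885 CPM elsewhere. Genes of mesothelium and ovarian surface epithelium summed to 611 and 362 CPM, within the 282 to 679 CPM elsewhere. The 611 CPM was above the 282 to 399 CPM of the other CAST/EiJ libraries. Of the 12 genes, 3 were above 2-fold in the CAST/EiJ library and 0 in the C57BL/6J library. No gene of these lists was at 0 in either library. The part of these other tissues in the members' values was not tested.

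Diet was compared within each strain, to ask whether the high fat, high sugar diet changed the members. No member passed an adjusted p of 0.05 in C57BL/6J, where 0.0% of genes tested did, and 19 of 57 had an unadjusted p under 0.05, against 8.83% of genes. On the log2 scale, 51 of 57 were higher on 44% fat, with a median of 1.06, against a median of 0.01 over all genes. Without both libraries highest in Foxj1, 38 of 54 were higher, with a median of 0.26, and without the 3 highest 28 of 54, with a median of 0.03. The C57BL/6J libraries left out were on 44% fat and were chosen for high Foxj1, so smaller diet effects follow by construction. White adipocyte genes summed to 238 to 1105 CPM on 44% fat and 148 to 659 CPM on 10% fat, and their part was not tested. Dnah5, Cfap53 and Pax8 had the smallest p. The outer arm gene Dnah5 (chr15:28203752-28472045, plus strand) had 29.6, 0.282, 4.29 and 0.427 CPM on 44% fat, against 0, 0.196 and 0.25 CPM on 10% fat. All 4 libraries on 44% fat were above all 3 on 10% fat, with replicate 1 far above the rest. The log2 fold change was 5.90 ± 1.40 (SE; adjusted p = 0.327), and 3.50 without both libraries. Pax8 averaged 0.963 ± 1.23 CPM on 44% fat and 0.0454 ± 0.0191 CPM on 10% fat (SD, n = 4 and 3), a log2 fold change of 4.36 ± 1.40 (adjusted p = 0.414). Cfap53, whose loss disturbs left-right asymmetry, was at 3.41 ± 1.08 (adjusted p = 0.403). DESeq2, run as an alternative, called 2 members, Dnah5 and Pax8, both higher on 44% fat, against 0.337% of genes (0.104% higher and 0.233% lower). Without replicate 2 on 10% fat 1 member was called, a count with no share of all genes to set beside it.

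In CAST/EiJ no member was called, against 0.624% of genes (0.525% higher and 0.0991% lower on 44% fat), though 37 of 57 had an unadjusted p under 0.05, against 13.5% of genes. The values were lower on 44% fat in 54 of 57, with a median log2 fold change of -1.87. Without both libraries highest in Foxj1 the median was -0.06 over 54 members, with 32 lower and 4 at an unadjusted p under 0.05. No member was called then either, against 0.555% of genes (0.450% higher and 0.105% lower). The CAST/EiJ library left out was highest for 47 of the 59 members, so smaller diet effects follow by construction. Tekt1 had the smallest p. It had 0.438, 0.396, 0.449 and 0.50 CPM on 44% fat, against 0.798, 13.8, 0.621 and 0.762 CPM on 10% fat. Those groups did not overlap, and the log2 fold change was -3.15 ± 0.88 (adjusted p = 0.107), or -0.70 without both libraries (adjusted p = 0.398). Cfap126 was at -3.16 ± 0.89 with all libraries (adjusted p = 0.108) and at -0.24 without both. Cfap61, a protein at the base of radial spokes, was at -3.25 ± 0.94 (adjusted p = 0.113), and at -0.38 without both. Foxj1 averaged 0.830 ± 0.276 CPM on 44% fat and 28.1 ± 54.2 CPM on 10% fat (SD, n = 4 each). White adipocyte genes summed to 201 to 1055 CPM on 44% fat and 161 to 3631 CPM on 10% fat, and other oviduct epithelium genes to 134 to 179 and 170 to 640 CPM. DESeq2 called 9 members, all lower on 44% fat, against 3.04% of genes (1.73% higher and 1.31% lower). With edgeR 3 members were called without replicate 1 of the 10% fat group and 1 without replicate 4. The shares of all genes called in those fits are not given, so these counts have no background.

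In NZO/HlLtJ no member was called, against 0.0% of genes, and 0 had an unadjusted p under 0.05, against 3.52% of genes; DESeq2 also called 0. Ovgp1 had 0.212, 4.56, 9.77 and 1.66 CPM on 44% fat, against 0.230, 0.137, 0.0434 and 0.0786 CPM on 10% fat. Of the libraries on 44% fat, 3 were above all 4 on 10% fat and replicate 1 lay among them. The log2 fold change was 5.0 ± 2.74 (adjusted p = 1.00). Dnah14, a dynein heavy chain whose arm is not settled, averaged 0.974 ± 0.212 CPM on 44% fat and 0.620 ± 0.162 CPM on 10% fat (SD, n = 4 each). Its log2 fold change of 0.65 ± 0.34 had the smallest p of the members (adjusted p = 1.00), and Dnah8 followed at 0.25 ± 0.20 (adjusted p = 1.00).

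Averaged over the 3 strains, no member was called for diet, against 0.0% of genes, and 1 had an unadjusted p under 0.05, against 5.89% of genes; DESeq2 called 0. Dnah5 was at 1.87 ± 0.68 on the log2 scale (adjusted p = 0.773). Rsph3a was at -0.13 ± 0.06 and Cfap161, a protein inside the doublet microtubules, at -0.66 ± 0.33 (adjusted p of 0.839 and 0.846).

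The diet effect was also compared between strains. Between CAST/EiJ and C57BL/6J the difference was negative in 53 of 57 members, with a median of -3.14 on the log2 scale against -0.04 over all genes. No member passed, against 0.614% of genes (0.565% positive and 0.0495% negative), with 39 at an unadjusted p under 0.05, against 16.0% of genes. Pax8 came nearest at -7.26 ± 1.67 (adjusted p = 0.051), followed by Foxj1 at -11.08 ± 2.66 and Tekt1 at -5.52 ± 1.33 (adjusted p of 0.059 each). The 2 libraries highest in Foxj1 fall on opposite diets in these strains. Without them the 3 values were -3.61, -3.74 and -1.93, with adjusted p of 0.0933, 0.161 and 0.105. As the libraries were chosen by Foxj1, smaller differences for Foxj1 and for members high with it follow by construction. This comparison depended on the method: DESeq2 called 19 members, against 4.22% of genes. Relative log expression scaling in edgeR called 1. Leaving out single libraries gave 0 to 6, the most without CAST/EiJ 10% fat replicate 3. Shares of all genes are not given for the scaling and left-out fits, so their counts have no background.

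Between NZO/HlLtJ and C57BL/6J no member's diet effect differed at the threshold, against 0.0% of genes, and 5 had an unadjusted p under 0.05, against 3.92% of genes. Dnah5 was at -5.35 ± 1.88, Cfap53 at -3.91 ± 1.41 and Dnah17 at -0.63 ± 0.28 (adjusted p = 1.00 each). Between NZO/HlLtJ and CAST/EiJ no member passed, against 0.0149% of genes, and 18 had an unadjusted p under 0.05, against 11.4% of genes. Ovgp1 was at 12.31 ± 3.27 (adjusted p = 0.188), Tekt1 at 3.76 ± 1.22 (0.276) and Cfap44, which tethers inner arm motors, at 5.26 ± 1.76 (0.282). Without both libraries these were 3.43, 1.32 and 0.91, where smaller values again follow from the choice of libraries. DESeq2 called 0 members in both comparisons.

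Strains were compared over both diets. Between CAST/EiJ and C57BL/6J, 12 of 57 members passed, against 46.8% of all genes; 9 were higher and 3 lower in CAST/EiJ. Between NZO/HlLtJ and C57BL/6J, 9 passed, against 23.9% of genes, with 3 higher and 6 lower in NZO/HlLtJ. Between NZO/HlLtJ and CAST/EiJ, 29 passed, against 48.1% of genes, with 5 higher and 24 lower in NZO/HlLtJ.

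Dnah5 parted CAST/EiJ from the other strains. NZO/HlLtJ libraries had 0.174 to 0.779 CPM, with a median of 0.425 over 8. In CAST/EiJ it had 31.5, 22.5, 14.7 and 34.4 CPM on 44% fat and 34.0, 95.5, 28.4 and 26 CPM on 10% fat. Those ranges did not overlap, and the log2 fold change of NZO/HlLtJ over CAST/EiJ was -6.24 ± 0.79 (adjusted p = 2.46e-06), or -5.91 without both libraries. Against C57BL/6J, CAST/EiJ was higher by 4.93 ± 0.84 (adjusted p = 8.26e-05), or 5.81 without both libraries. Only C57BL/6J 44% fat replicate 1, at 29.6 CPM, reached the CAST/EiJ range. In CAST/EiJ 10% fat replicate 2 Dnah5 was 3.24-fold above the rest of its group, while the related Dnah9 and Dnah11 were at 8.51-fold and 26.7-fold; Dnah11 is named here after its values were seen.

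Cfap54, a protein of the central apparatus, was low in C57BL/6J alone. NZO/HlLtJ libraries had 18.9 to 23.7 CPM and CAST/EiJ libraries 14.6 to 51.3 CPM. C57BL/6J libraries had 8.69, 1.27, 1.74 and 1.01 CPM on 44% fat and 1.19, 0.859 and 0.874 CPM on 10% fat. No C57BL/6J library reached the others, and even replicate 1 on 44% fat stayed below them. The log2 fold changes were 3.61 ± 0.41 for NZO/HlLtJ over C57BL/6J (adjusted p = 1.65e-06) and 3.57 ± 0.41 for CAST/EiJ over C57BL/6J (adjusted p = 6.03e-07), and 4.25 and 3.92 without both libraries.

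Rsph3b, which codes for a protein of the spoke stalk, was low in CAST/EiJ. NZO/HlLtJ libraries had 19.5 to 24.9 CPM. The levels in CAST/EiJ were 5.47, 4.97, 4.77 and 3.67 CPM on 44% fat and 4.74, 6.79, 7.05 and 3.31 CPM on 10% fat, against 25.1 to 35.0 CPM in C57BL/6J, with a median of 28.6. CAST/EiJ lay below both other strains with no overlap, by -2.55 ± 0.14 against C57BL/6J (adjusted p = 4.59e-12), and NZO/HlLtJ was above CAST/EiJ by 2.13 ± 0.13 (adjusted p = 4.81e-11). Its copy Rsph3a was at 16.3 to 21.5 CPM in NZO/HlLtJ, 23 to 33.8 CPM in CAST/EiJ and 22.3 to 31.3 CPM in C57BL/6J. It was called lower in NZO/HlLtJ, by -0.41 ± 0.08 against CAST/EiJ and -0.49 ± 0.08 against C57BL/6J (adjusted p of 0.000142 and 8.51e-05), and not between CAST/EiJ and C57BL/6J.

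Dnah7a and Dnah7b, copies of an inner arm heavy chain gene that lie with Dnah7c on chromosome 1, differed in opposite directions. Dnah7b was at 23.9 to 34.4 CPM in NZO/HlLtJ. It was at 8.08, 6.92, 7.38 and 6.64 CPM on 44% fat and 8.09, 11.8, 11.8 and 4.18 CPM on 10% fat in CAST/EiJ, against 16.8 to 27.9 CPM in C57BL/6J. The difference was -1.48 ± 0.17 for CAST/EiJ over C57BL/6J (adjusted p = 5.01e-07) and 1.82 ± 0.17 for NZO/HlLtJ over CAST/EiJ (adjusted p = 1.95e-08). Dnah7a was at 0.152 to 0.455 CPM in NZO/HlLtJ, 1.35 to 10.8 CPM in CAST/EiJ and 0.174 to 1.52 CPM in C57BL/6J. The log2 fold change was -3.09 ± 0.39 for NZO/HlLtJ over CAST/EiJ (adjusted p = 1.98e-06) and 2.42 ± 0.41 for CAST/EiJ over C57BL/6J (adjusted p = 5.62e-05).

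Copies share sequence, so these values are uncertain. In the longest transcript of GENCODE M21, 64.8% of the 100-base windows of Rsph3b occur in Rsph3a and 60.6% the other way round. For Dnah7a, Dnah7b and Dnah7c, 20%, 23.5% and 24.9% of windows occur in another copy. How the counting divided such reads is not given in the sources used here. Whether reads of CAST/EiJ and NZO/HlLtJ were aligned to their own genomes is likewise not given, and the part of sequence differences between strains was not tested. The promoters of the 3 Dnah7 copies were 25.7% to 34.3% identical over 300 bases when compared at equal distances from each start, without alignment. Each held GTTGCC, in capitals below within stretches of 52 bases, beginning at -200 (Dnah7a), -163 (Dnah7b) and -219 (Dnah7c) from the start. As these positions differ, the percentages do not show how alike aligned promoters would be. The stretches are shown because Dnah7a and Dnah7b differed in opposite directions. Dnah7c was not called between strains with all libraries.
Dnah7a, chr1:53706956-53707007, minus strand: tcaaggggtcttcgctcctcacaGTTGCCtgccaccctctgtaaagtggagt
Dnah7b, chr1:46066667-46066718, plus strand: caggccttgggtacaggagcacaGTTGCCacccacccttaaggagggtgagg
Dnah7c, chr1:46425276-46425327, plus strand: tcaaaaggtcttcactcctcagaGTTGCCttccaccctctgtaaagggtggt

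**Figure D4:**
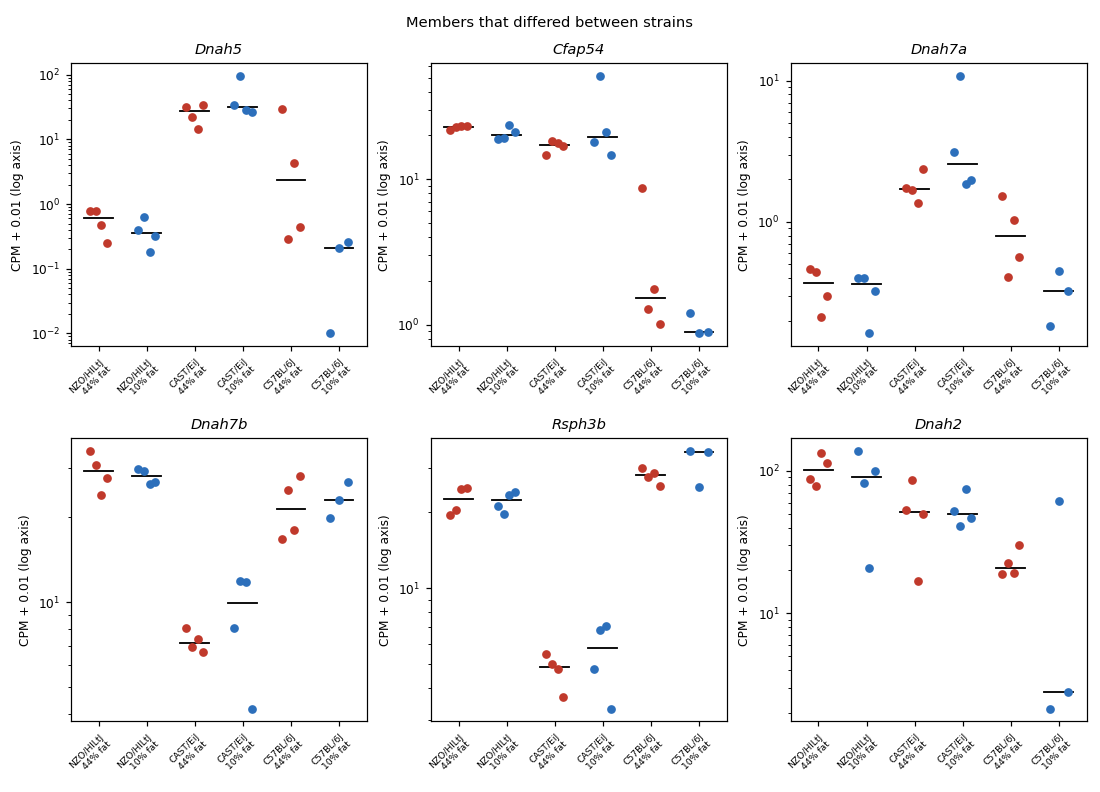
CPM plus 0.01 (log axis) of 6 members in each library (points) by strain and diet, with the group median as a line (red, 44% fat; blue, 10% fat). Dnah5 and Dnah7a are high and Dnah7b and Rsph3b low in CAST/EiJ, Cfap54 is low in C57BL/6J, and Dnah2 spans 2.13 to 61.5 CPM in C57BL/6J on 10% fat.

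Dnah2, an inner arm heavy chain, had the highest level per kilobase of its role, and its spread was of another kind. In NZO/HlLtJ it had 87.4, 78.3, 133 and 114 CPM on 44% fat and 138, 82.3, 20.9 and 100 CPM on 10% fat. C57BL/6J libraries had 18.8, 22.6, 19.3 and 30.4 CPM on 44% fat and 2.13, 61.5 and 2.78 CPM on 10% fat. The ranges overlapped; NZO/HlLtJ was higher by 2.06 ± 0.56 on the log2 scale (adjusted p = 0.0111), with an adjusted p of 0.0699 without the 3 libraries highest in Foxj1. It was not raised in either high library, at 0.703-fold and 0.779-fold. In C57BL/6J on 10% fat the granulosa genes summed to 1913, 5610 and 2021 CPM in replicates 1 to 3, highest in the library highest in Dnah2. The same library was highest in both in NZO/HlLtJ on either diet and in C57BL/6J on 44% fat, but not in CAST/EiJ on either diet. In NZO/HlLtJ on 10% fat, replicate 3 was lowest in Dnah2 with a granulosa sum of 2818 CPM, above the 2565 CPM of replicate 2. The part of granulosa cells in the level of Dnah2 was not tested.

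Other calls between CAST/EiJ and C57BL/6J were of mixed size. Pax8 was higher in CAST/EiJ by 4.16 ± 0.84 (adjusted p = 0.00042), with 1.08 to 35.4 CPM in CAST/EiJ and 0.0248 to 2.79 CPM in C57BL/6J, and by 3.79 without both libraries. Cfap206, an adaptor of radial spokes, was higher by 2.61 ± 0.82 (adjusted p = 0.0131), and Rsph1 by 1.85 ± 0.61 (0.0171). Rsph1 was at 1.06 without both libraries. The inner arm gene Dnah10 was higher by 1.10 ± 0.36 (0.0171) and Rsph10b by 1.30 ± 0.50 (0.0406), the second of which shares 13.2% of its exon bases with genes on the same strand. Dnaaf5 and Cfap97, steady members, differed by 0.30 ± 0.06 and -0.25 ± 0.05 (adjusted p of 0.000495 and 0.00064). Rsph10b lost its call in 9 of 29 alternatives, with an adjusted p up to 0.261. Without CAST/EiJ 10% fat replicate 2 alone, Rsph10b was at 0.46, Rsph1 at 0.70, Cfap206 at 1.55 and Dnah10 at 0.68, and none of these was called (adjusted p of 0.261, 0.137 and 0.0622 for the first 3). All 12 calls remained without both libraries, and 21 members were then called, 11 higher and 10 lower in CAST/EiJ, against 48.3% of genes.

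In NZO/HlLtJ the sperm-type outer arm gene Dnah8 was higher than in both other strains. It had 13.0, 10.7, 10.8 and 11 CPM on 44% fat and 11, 10.5, 6.47 and 10.4 CPM on 10% fat, against 3.56 to 7.10 CPM in CAST/EiJ and 4.29 to 7.27 CPM in C57BL/6J. All but replicate 3 on 10% fat lay above both other strains. The differences were 1.02 ± 0.15 against CAST/EiJ (adjusted p = 9.36e-06) and 0.87 ± 0.15 against C57BL/6J (adjusted p = 0.000309). Dnah17 was higher than in CAST/EiJ by 0.55 ± 0.13 (adjusted p = 0.00225). The assembly factor gene Dnaaf3 was lower than in CAST/EiJ by -1.68 ± 0.28 and lower than in C57BL/6J by -1.19 ± 0.29 (adjusted p of 5.67e-05 and 0.00499). Against C57BL/6J, Cfap161 was lower by -1.48 ± 0.42, Rsph3b by -0.42 ± 0.13, Cfap57, an inner arm adaptor, by -2.13 ± 0.67 and Rsph14 by -3.98 ± 1.42 (adjusted p of 0.0138, 0.0229, 0.0261 and 0.0475). Of these 9 calls, 8 remained without both libraries, when Rsph14 no longer had enough counts, and 16 members were then called, 9 higher and 7 lower in NZO/HlLtJ, against 12.3% of genes higher and 12.7% lower. Rsph14 lost its call in 17 of 27 alternatives (adjusted p up to 0.128), Rsph3b in 5 of 29 and Cfap57 in 2, the last of these without C57BL/6J 44% fat replicate 1 (adjusted p = 0.0846) and with a term for identifier series.

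Between NZO/HlLtJ and CAST/EiJ, values are given with and without both high libraries; as 1 of these is the CAST/EiJ library highest in Ovgp1, Pax8 and Foxj1, its removal lowers the CAST/EiJ level of these genes by construction. Ovgp1 was lower in NZO/HlLtJ by -7.06 ± 1.66 (adjusted p = 0.00163), and by -2.62 without both libraries (adjusted p = 0.0107). Pax8 was lower by -3.27 ± 0.69 (adjusted p = 0.000616), and by -2.17 without both, and Foxj1 was lower by -4.16 ± 1.18 (adjusted p = 0.00666), and by -1.75 without both. Dnaaf5 was lower by -0.38 ± 0.06 and Cfap97 higher by 0.33 ± 0.05 (adjusted p of 2.58e-05 and 1.72e-05), and by -0.40 and 0.33 without both. The median over members was -1.23 with all libraries and 0.0037 without both. Of the 29 calls 21 remained without both, and 31 members were called in all, 15 higher and 16 lower in NZO/HlLtJ, against 49.2% of genes. DESeq2 called 28 members, against 49.7% of genes. Of these, 23 were shared, and Ovgp1, Foxj1, Dnah9, Cfap46, Cfap52 and Dnah12 were not called. Rsph4a, Dnah9 and Dnaaf1 were among the calls lost without both libraries, with adjusted p of 0.414, 0.0677 and 0.307.

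**Figure D5:**
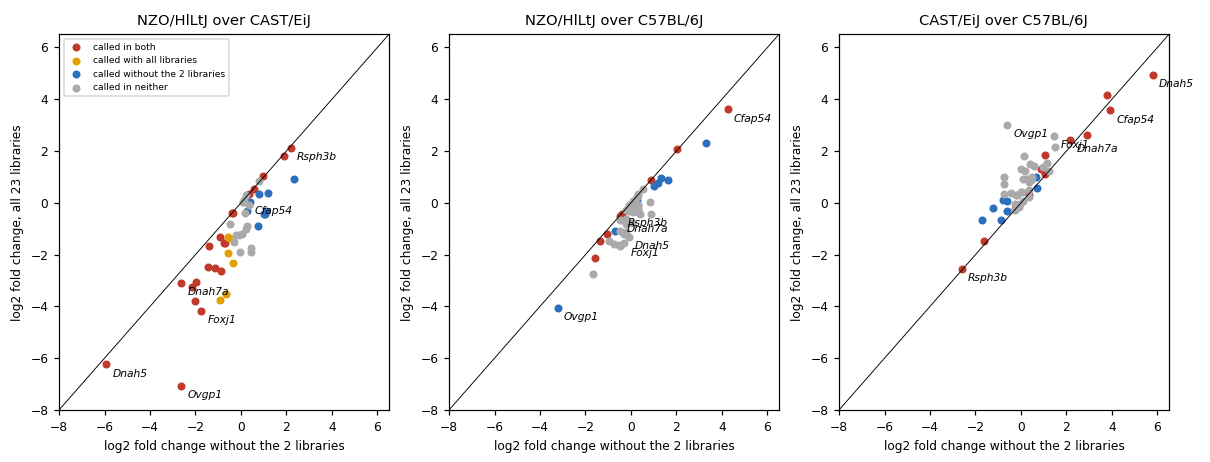
Log2 fold change of 54 members between strains, averaged over diets, with all 23 libraries (vertical) against that without both libraries highest in Foxj1 (horizontal); the line marks equal values, and called means an adjusted p under 0.05. For NZO/HlLtJ over CAST/EiJ most points lie below the line, with Ovgp1 at -7.06 and -2.62, whereas Rsph3b lies on it at 2.13 and 2.19.

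Genes outside the rule were also compared between strains. Of 73 motile cilia genes tested, 16 were called between CAST/EiJ and C57BL/6J, 10 higher and 6 lower in CAST/EiJ, against 46.8% of all genes, and 5 between NZO/HlLtJ and C57BL/6J, 1 higher and 4 lower in NZO/HlLtJ, against 23.9%. Between NZO/HlLtJ and CAST/EiJ 32 were called, 3 higher and 29 lower in NZO/HlLtJ, against 48.1% of all genes. Spa17, a sperm autoantigen also found in ciliated cells, was lower in NZO/HlLtJ than in CAST/EiJ by -1.71 and than in C57BL/6J by -3.20 (adjusted p of 0.00026 and 6.6e-07). Morn2 was lower by -1.57 and -1.77 (adjusted p of 1.9e-07 and 1.8e-07). Of 43 primary cilia genes, 25 were called between CAST/EiJ and C57BL/6J, 12 higher and 13 lower in CAST/EiJ, with a median of 0.02, and 25 between NZO/HlLtJ and CAST/EiJ, with a median of -0.03.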

How the data were processed

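Gene levels came from the authors' deposited table of expected counts for 23 ovary libraries; the values were read as such because 27.4% were not whole numbers. The aligner, the counting tool and its use of strand are not given in the sources used here. The submitters' processing notes name GRCm38 and DESeq2, with no versions. Per the labels' protocols, polyA RNA was sequenced as 100 bp read pairs, and 0 columns of the table were left unused. Every gene listed was above 0 in at least 12 libraries.

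Expected counts were rounded to whole numbers. edgeR 4.0.16 in R 4.3.3 kept 20189 genes (81.7%) with filterByExpr (minimum count 10, minimum total 15), scaled libraries with TMM factors and fitted 6 group means over all 23 libraries with its robust quasi-likelihood model, whose common biological coefficient of variation was 0.268. In each of 10 comparisons, p-values were adjusted across the genes kept (Benjamini-Hochberg), and calls needed an adjusted p under 0.05. The steps were tested on simulated data. The SE of a log2 fold change was derived from the quasi-likelihood test, as its absolute value over the square root of the F statistic. Levels are CPM with TMM factors. Chi-square per degree of freedom ran between 12.4 and 220 over 33 replicate pairs, so no pair looked like 1 library deposited again. A ratio of a library to the rest of its group was taken where the rest held more than 3 counts.

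Libraries were grouped by labelled strain and diet and numbered in deposit order, which pairs nothing. Alternatives were DESeq2 1.42.0, relative log expression scaling, no count filter, a term for the number series of library identifiers, and each library left out in turn. Fits without the 2 or 3 libraries highest in Foxj1 were chosen after seeing the data. Foxj1 is itself a member. By construction, these fits lower Foxj1 and members high with it in the groups that lose a library. The members, gene lists and named genes were chosen with earlier results of these data known. Values are given for Foxj1, Pax8, Ovgp1, Dnah5, Dnah9, Dnaic1, Dnaic2, Rsph1, Rsph4a, Rsph9, Tekt1, Tekt2, Dnaaf1 and Cfap126, for members called (the 12 of smallest p where more were) or the 3 of smallest p, and for extremes of level and of spread. Exon overlap and shared windows were computed from GENCODE M21, which held all 59 members, 47 of them with the same start and end.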

Additional observations from a re-analysis of the deposited data

Results flagged for a closer look

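Values were looked at again where the highest or lowest of 4 libraries lay apart from the other 3 by more than Dixon's critical value. Of 70 groups of 4 libraries (14 genes in 5 groups) 30 were so marked. The rule marks about 5% of groups by chance when groups are independent. These genes were chosen with earlier results known and were high in the same libraries, so the 30 marks cannot be set against that rate.

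All 14 genes were marked for CAST/EiJ 10% fat replicate 2: Foxj1 at 109 CPM, Pax8 at 35.4, Ovgp1 at 4784, Dnah5 at 95.5, Dnah9 at 50.4, Dnaic1 at 8.26, Dnaic2 at 22.5, Rsph1 at 73.3, Rsph4a at 38.7, Rsph9 at 7.96, Tekt1 at 13.8, Tekt2 at 4.27, Dnaaf1 at 8.48 and Cfap126 at 23.2 CPM. For C57BL/6J 44% fat replicate 1, 9 of the 14 were marked: Foxj1 at 22.2 CPM, Pax8 at 2.79, Dnah5 at 29.6, Dnah9 at 18.4, Dnaic1 at 3.35, Dnaic2 at 10.3, Rsph4a at 9.76, Tekt2 at 2.68 and Dnaaf1 at 4.01 CPM. Ovgp1 was not among them.

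The other 7 values lay in 4 other libraries. In CAST/EiJ on 44% fat, Foxj1 was at 1.24 CPM in replicate 1, and Ovgp1 at 21.1 and Rsph1 at 12.8 CPM in replicate 3. In NZO/HlLtJ on 10% fat, Pax8 was at 0.524 CPM in replicate 4, and replicate 2 had 0.595 CPM of Tekt1, with low values of 2.52 CPM for Rsph9 and 1.35 CPM for Cfap126.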

How the results depend on the processing

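No count of calls could change sign, and no fold change of a named member did. The median over members did change sign without both libraries highest in Foxj1, to 0.0037 against -1.23 between NZO/HlLtJ and CAST/EiJ, 0.03 against -0.34 between NZO/HlLtJ and C57BL/6J, and 0.17 against -0.06 for diet over strains; without the 3 highest it was 0.04 against -3.14 for the diet effect in CAST/EiJ against C57BL/6J and 0.08 against -1.03 in NZO/HlLtJ against C57BL/6J. The members called were within 1.5 times the number reported except as follows. DESeq2 called 2 members for diet in C57BL/6J, against 0.337% of all genes, and 9 for diet in CAST/EiJ, against 3.04%. It called 19 for the diet effect in CAST/EiJ against C57BL/6J, against 4.22% of all genes. There relative log expression scaling called 1 and the fit reported 0. Without both libraries highest in Foxj1, 21 members were called between CAST/EiJ and C57BL/6J, against 48.3% of all genes. Between NZO/HlLtJ and C57BL/6J 16 were called then, against 12.3% of all genes higher and 12.7% lower in NZO/HlLtJ. Without the 3 highest, 26 were called between CAST/EiJ and C57BL/6J, against 44.4% of all genes. Between NZO/HlLtJ and C57BL/6J 17 were called in that fit, against 20.1% of all genes. Leaving out each library in turn gave 11 to 24 calls between CAST/EiJ and C57BL/6J, with 24 without C57BL/6J 44% fat replicate 1 and 19 without CAST/EiJ 10% fat replicate 2. It gave 0 to 1 for diet in C57BL/6J, 0 to 3 for diet in CAST/EiJ and 0 to 6 for the diet effect in CAST/EiJ against C57BL/6J, where 6 were called without CAST/EiJ 10% fat replicate 3, 4 without C57BL/6J 10% fat replicate 2 and 3 without CAST/EiJ 10% fat replicate 4. It gave 7 to 13 between NZO/HlLtJ and C57BL/6J and 24 to 33 between NZO/HlLtJ and CAST/EiJ. The causes were not tested. Shares of all genes called are not given for relative log expression scaling, single libraries left out or the identifier series term. Counts from those fits therefore cannot be set against a background. A term for identifier series, which no label calls a batch, gave 14 calls between CAST/EiJ and C57BL/6J, 8 between NZO/HlLtJ and C57BL/6J, 28 between NZO/HlLtJ and CAST/EiJ and 0 in the others; series 82 held no NZO/HlLtJ library on 44% fat, and series 90 no NZO/HlLtJ or C57BL/6J library on 10% fat. Of 1564 recomputed fold changes of named members, 1509 stayed on their side of the threshold, 38 lost it and 17 gained it. No paired analysis was possible because the labels carry no replicate numbers. Groups of 3 or 4 libraries and members at a few counts limit what could be detected.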
